A study of Mus musculus with 84 samples.

Results

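The spinal cord libraries of the chronic stage (Ech) of experimental autoimmune encephalomyelitis (EAE) were compared with those of unimmunized control mice (C). Members were taken from the library titles, which gave 6 chronic and 5 control libraries, 11 of the 66 libraries of the EAE experiment and of 84 in the whole series. EAE is a mouse model of multiple sclerosis in which immunization against a myelin peptide leads to ascending paralysis. Female C57BL/6J mice of 10 weeks were immunized with the peptide MOG35-55 in complete Freund's adjuvant and received pertussis toxin, whereas control mice were unimmunized. Whether control mice received adjuvant or pertussis toxin is not stated, and no transgene or deletion is given for any group. Viable cells that were negative for CD11B and CD45, positive for ACSA-2 and negative for GLAST were sorted from the cervical and thoracic cord, and a library may pool the RNA of up to 2 mice. Chronic libraries were also set against 5 libraries of score 1 (E1, limp tail) and 6 of score 4 (E4, complete hind leg paralysis) from the same cord segments, and against GLASTneg libraries of hindbrain from the same disease stage (6) and from unimmunized mice (5). Libraries read the 3′ end of transcripts, about 1 read per transcript, so that a level does not scale with gene length. Levels are given as CPM, the counts of a gene relative to its library's total as scaled by TMM in edgeR.

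Astrocytes clear glutamate, GABA and potassium from the extracellular space, couple to each other through connexins, line blood vessels with endfeet rich in aquaporin-4, and supply neurons and myelinating cells with sterols and lactate. In inflamed tissue they can take up a reactive state in which acute-phase, complement, interferon-response and antigen presentation genes are transcribed. ACSA-2 is the product of *Atp1b2*, a beta subunit of the sodium-potassium pump, and GLAST, the product of *Slc1a3*, is a glutamate transporter.

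Promoters of 3 genes that rose are shown first because they stand for interferon, antigen presentation and cell division genes, which rose as groups in the results below. Each runs from 250 bases before to 50 bases after the start of a RefSeq transcript (GRCm38.p6), 5′ to 3′ on the gene's own strand, and capitals mark the motifs found by a search of both strands. The search took the interferon-stimulated response element as TTTC, any 2 bases and TTTC, the gamma-activated site as TTCNNNGAA, the CCAAT box as CCAAT and the cell cycle homology region as TTTGAA. *Oas1a*, an interferon-induced enzyme that makes oligoadenylates (chr5:120907476-120907775, minus strand), was chosen after its promoter had been seen, since *Ifi47*, the interferon-stimulated gene with the largest rise, held neither interferon motif in this window. In chronic libraries 1 to 6 *Oas1a* measured 7.29, 0, 0, 14.5, 0.3 and 0.548 CPM, and it was at 0 in all controls, so that its rise rested on libraries 1 and 4 and was not called without library 4 (adjusted p = 0.0542). *H2-Eb1* (chr17:34305617-34305916, plus strand) encodes an MHC class II beta chain and *Ube2c* (chr2:164769679-164769978, plus strand) a ubiquitin-conjugating enzyme of mitotic exit.

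Oas1a: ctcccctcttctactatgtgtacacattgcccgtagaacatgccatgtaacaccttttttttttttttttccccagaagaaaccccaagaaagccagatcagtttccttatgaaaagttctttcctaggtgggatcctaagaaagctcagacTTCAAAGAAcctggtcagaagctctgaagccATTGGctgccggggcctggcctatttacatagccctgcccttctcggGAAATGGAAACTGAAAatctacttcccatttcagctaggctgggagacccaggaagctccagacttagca
H2-Eb1: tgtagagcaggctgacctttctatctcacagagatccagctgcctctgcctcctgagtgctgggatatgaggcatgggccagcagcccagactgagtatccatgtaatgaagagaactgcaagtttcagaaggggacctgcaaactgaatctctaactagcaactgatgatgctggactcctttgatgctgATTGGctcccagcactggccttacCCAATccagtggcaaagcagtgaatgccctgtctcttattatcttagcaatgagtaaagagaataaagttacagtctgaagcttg
Ube2c: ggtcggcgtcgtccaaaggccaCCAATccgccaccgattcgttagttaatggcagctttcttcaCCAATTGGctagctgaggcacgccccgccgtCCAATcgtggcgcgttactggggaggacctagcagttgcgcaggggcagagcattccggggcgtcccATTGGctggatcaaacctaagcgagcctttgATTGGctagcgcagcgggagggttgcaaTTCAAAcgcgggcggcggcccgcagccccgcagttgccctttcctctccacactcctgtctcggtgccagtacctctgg

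The *Oas1a* window held 2 overlapping interferon-stimulated response elements, at -20 and -14 from the start, and 1 gamma-activated site that overlaps a cell cycle homology motif at -98, and 1 CCAAT box at -67. In *H2-Eb1*, 2 CCAAT boxes lay at -59 and -35. *Ube2c* held 6 CCAAT boxes between -228 and -57 and 1 cell cycle homology motif at -29. Of the 32851 promoters of the reference table, 3.44% held the interferon-stimulated response element, against 20 of 40 promoters (50%) of the interferon-stimulated list described below and 6.64% of the 1115 promoters of genes that rose. A CCAAT box was found in 37.4% of all promoters, in 8 of 9 of the MHC class II list and in 26 of 32 of the mitosis list, and the cell cycle homology motif in 17.9% of all and in 26 of 32 of the mitosis list. The CCAAT box was also in 13 of 17 promoters of the cholesterol synthesis list, in which no gene rose, and in 39.3% of promoters of genes that rose. For the cell cycle homology motif these were 4 of 29 promoters of the DNA replication list and 15.2% of promoters of genes that rose. A match describes the letters of a window and is no evidence of binding.

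Library totals were 1857684 to 3705375 counts in controls and 2173479 to 4209741 in chronic EAE. A gene was taken as detected at more than 3 counts, which is 0.860 to 1.49 CPM in control and 0.634 to 1.36 CPM in chronic libraries and covers counting error only. The share of mitochondrially encoded counts was 11.4 to 13.6% in controls and 6.05 to 6.998% in chronic libraries, and that of ribosomal protein genes 0.759 to 1.08% and 2.27 to 3.91%. The labels also carry a sheet number, 60 to 83 in controls and 47 to 70 in chronic libraries, whose meaning is not stated. On the first principal component of the 500 most variable genes, which held 79.2% of the variance, all control libraries lay apart from all chronic libraries.

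The label astrocyte was checked against 14 defining genes. Their summed level was 25690 CPM at the lowest, 28380 at the median and 31680 at the highest in controls, and 6773, 8352 and 10020 CPM in chronic libraries, without overlap. The 10 oligodendrocyte markers summed to 14560, 18690 and 42490 CPM in controls and to 25880, 31470 and 42130 CPM in chronic libraries, so that they exceeded the astrocyte sum in each chronic library and, among controls, in library 3. The libraries are therefore called ACSA-2-sorted spinal cord here. *Atp1b2* (ENSMUSG00000041329), the gene of the sorting antigen, measured 6472, 7001, 5175, 6634 and 7706 CPM in control libraries 1 to 5. In chronic libraries it measured 228 CPM at the lowest, 472 at the median and 609 at the highest, 14.5-fold lower and without overlap. The fall of astrocyte genes in this comparison can reflect fewer astrocytes in a library or less RNA of these genes per cell, and bulk libraries cannot tell these apart.

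**Figure D1:**
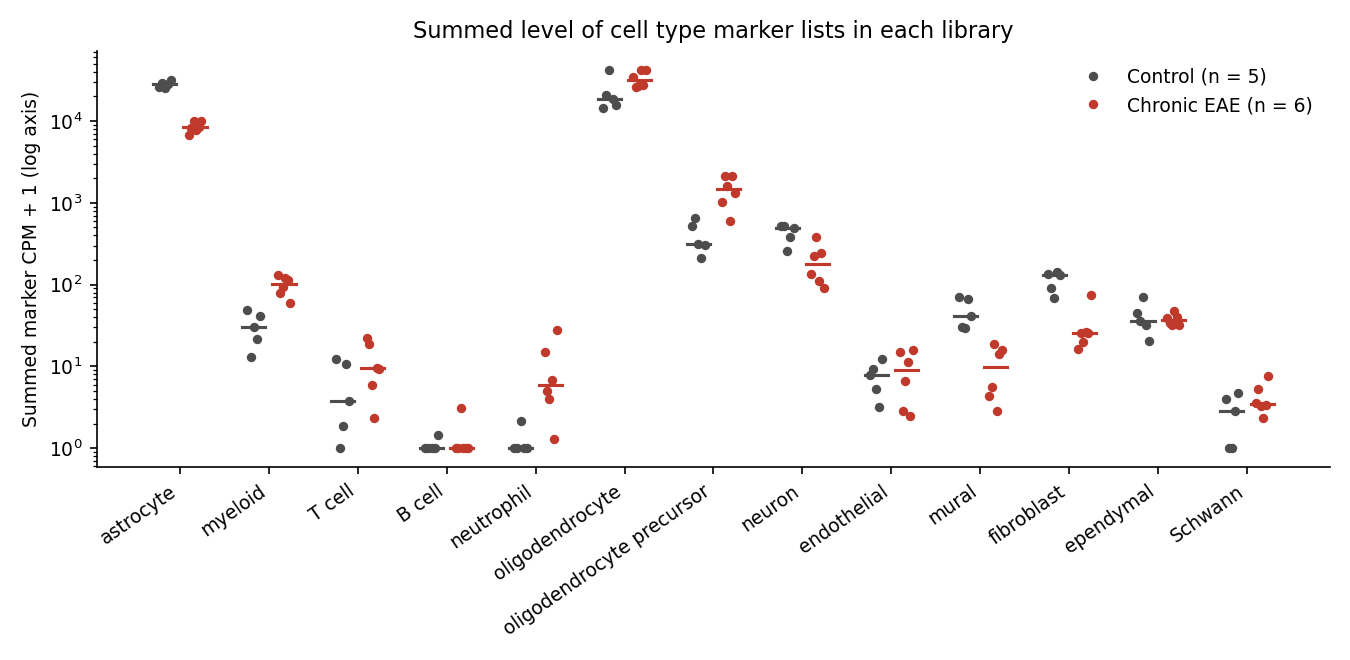
Summed CPM + 1 (log axis) of 13 lists of cell type markers in each control (grey, n = 5) and chronic (red, n = 6) library, with bars at the medians. The astrocyte sum is lower in all chronic libraries, the myeloid sum (58.4 to 132 CPM against 12.1 to 48.1) is higher in all of them, and the oligodendrocyte sums overlap.

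Some markers of immune cells and of oligodendrocyte precursors rose. The 12 myeloid markers summed to 12.1, 29.5 and 48.1 CPM (lowest, median, highest) in controls and to 58.4, 102 and 132 CPM in chronic libraries. Of them *C1qa*, *C1qb*, *C1qc* and *Ptprc*, which encodes CD45, passed the test, while *Cx3cr1*, *P2ry12* and *Csf1r* did not. T cell markers summed to at most 11.4 CPM in controls and 21.4 in chronic libraries, neutrophil markers to 1.15 and 27.1, and B cell markers to 0.468 and 2.11. *Cd3d*, *Cd3e*, *Cd3g* and *Cd2* were at 0 in all controls, of which *Cd3d* rose, as did the T cell marker *Lck*. *Trac* (means of 3.40 and 0.504 CPM in control and chronic libraries) and *Cd4* (0.892 and 0 CPM) went the other way and did not pass. The neutrophil markers *S100a8* and *S100a9* were at 0 in all controls and rose to means of 2.78 and 5.62 CPM. *Cd79a*, *Cd79b* and *Ms4a1* were at 0 in all chronic libraries. The 5 markers of oligodendrocyte precursors, *Pdgfra*, *Cspg4*, *Gpr17*, *Neu4* and *C1ql1*, all rose and summed to 211, 317 and 649 CPM in controls and to 594, 1467 and 2142 in chronic libraries, where library 4 was the lowest and the only one within the control range. The mural sum was lower in all chronic libraries (1.82 to 17.6 against 28.4 to 70.4 CPM), and of its genes *Pdgfrb* and *Notch3* fell. The other mural markers were not called. In control and chronic libraries *Rgs5* had means of 1.03 and 5.76 CPM, *Acta2* of 0 and 0.303 CPM and *Kcnj8* of 0.621 and 0.624 CPM. The fibroblast sum was lower in all chronic libraries but library 6 (15.5 to 73.7 against 67.7 to 144 CPM), and *Col1a1* and *Col1a2* fell. The fibroblast list moved in both directions, since *Dcn*, decorin, was at 0 in all controls and rose to a mean of 5.57 CPM in chronic libraries (0 to 24.4 CPM), while *Lum* and *Col3a1*, also at 0 in controls, had chronic means of 0.365 and 1.07 CPM and did not pass. The neuron sum was 260 to 526 CPM in controls and 90.96 to 384 CPM in chronic libraries, and *Nefl* and *Nefm*, neurofilament genes, fell (log2 fold change -1.96 and -1.86). Endothelial, ependymal and Schwann cell sums overlapped. These sums move with the gene groups below, and their part in those results was not tested.

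Of 23324 genes tested, 3436 were differentially expressed genes (DEGs) between chronic and control libraries, 1203 higher (5.16%) and 2233 lower (9.57%), by edgeR's two-sided quasi-likelihood test where a call needs an adjusted p under 0.05 and a log2 fold change outside the range from -1 to 1. The median log2 fold change of all genes was 0.00. All chronic libraries lay above all controls for 5.11% of the genes tested and below them for 6.65%. Tested against a log2 fold change of 1 rather than 0, 1586 genes were called, 413 of them higher. A fit of the 22 spinal cord libraries alone called 1381 higher and 1604 lower, so that the higher genes made up 46.3% of the calls in place of 35.0%. The p-values measure the spread between libraries. How the groups of genes divided is shown in the plot of called members per list. Counts of called members in this comparison stand against 5.16% higher and 9.57% lower among all genes.

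**Figure D2:**
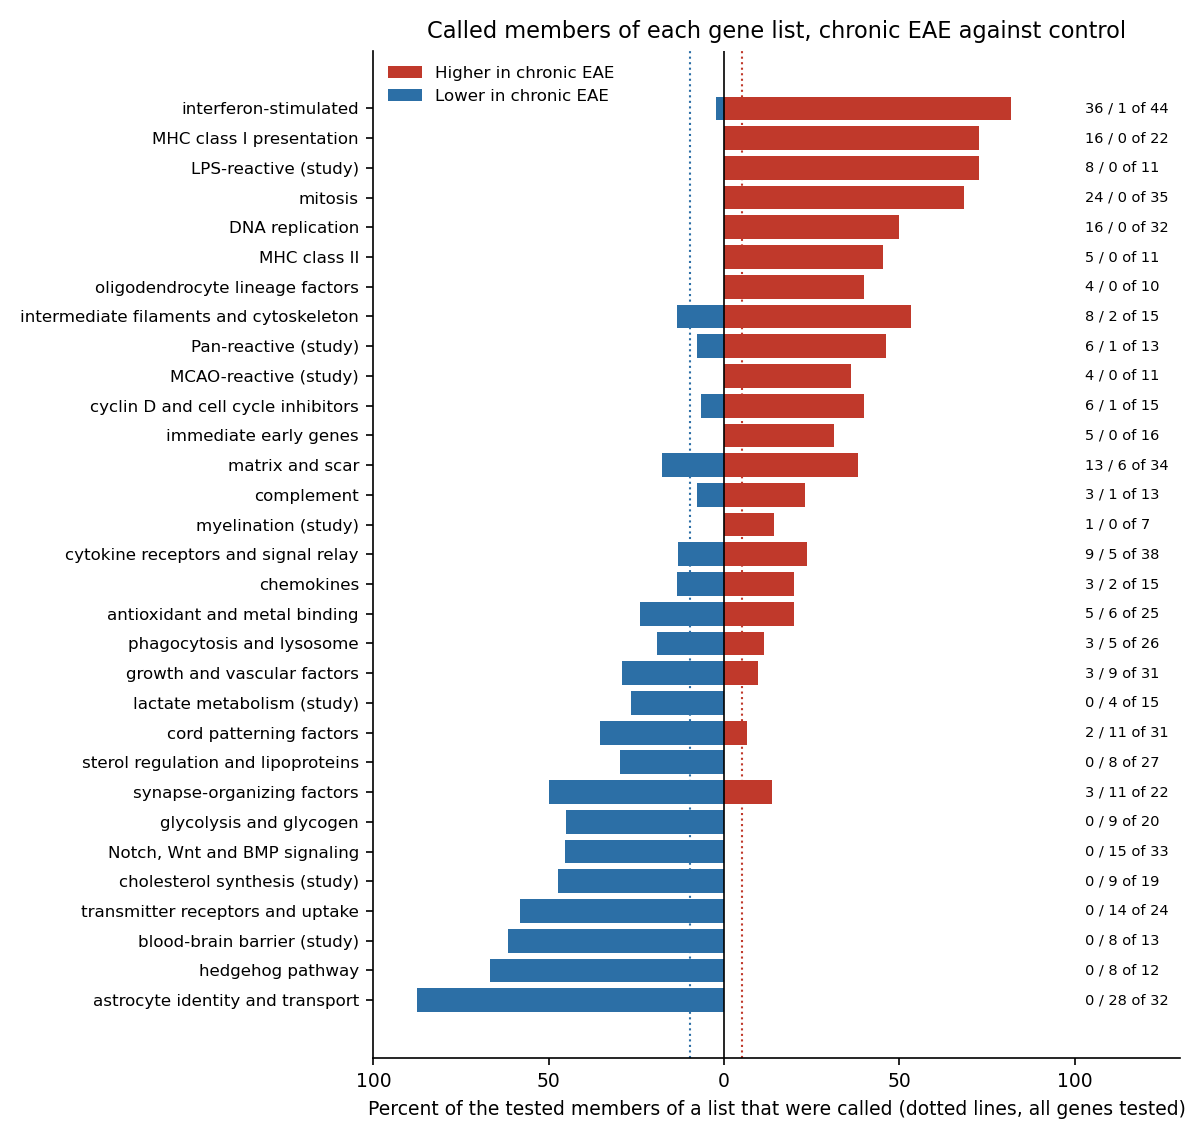
Percent of the tested members of 31 gene lists that were higher (red, right) or lower (blue, left) in chronic EAE than in controls, with counts higher / lower of tested beside each bar and dotted lines at the shares of all genes tested (5.16% higher, 9.57% lower). Interferon, antigen presentation and cell division lists lie on the right and astrocyte identity, hedgehog and transmitter lists on the left.

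Genes of astrocyte identity and transport fell together. Of 32 listed genes 28 were lower, none higher, and the median log2 fold change was -3.80 against 0.00 for all genes. The summed level of the list was 64510 to 95130 CPM in controls and 9720 to 14840 CPM in chronic libraries. *Slc7a10* (ENSMUSG00000030495; chromosome 7, 35186385 to 35201114), the Asc-1 exchanger of D-serine and small neutral amino acids, measured 223, 142, 98.04, 193 and 146 CPM in control libraries 1 to 5. Chronic libraries held 0.2998 CPM at the lowest, 1.66 at the median and 6.11 at the highest, all below every control. This was a 64.8-fold lower level (log2 fold change -5.97, SE 0.51, adjusted p = 9.95e-16). Connexin genes fell too.

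*Gjb6* (ENSMUSG00000040055; chromosome 14, 57123303 to 57133611), which encodes connexin 30, measured 898, 967, 749.6, 1058 and 1481 CPM in control libraries 1 to 5 and in chronic libraries 9.29 CPM at the lowest, 21.6 at the median and 37.3 at the highest (log2 fold change -5.53, SE 0.44, adjusted p = 5.29e-17). *Gja1* (ENSMUSG00000050953; chromosome 10, 56377330 to 56402513), which encodes connexin 43, measured 1143, 1170, 847, 994 and 1013 CPM in control libraries 1 to 5 and in chronic libraries 7.195 CPM at the lowest, 23.6 at the median and 48.9 at the highest (log2 fold change -5.35, SE 0.45, adjusted p = 3.65e-16). The falls were 46.5-fold and 40.98-fold, with no overlap between groups. *Fgfr3* (ENSMUSG00000054252; chromosome 5, 33721674 to 33737068), a fibroblast growth factor receptor, measured 1442, 1133, 914, 1319 and 1650 CPM in control libraries 1 to 5 and in chronic libraries 27.9 CPM at the lowest, 41.4 at the median and 65.1 at the highest (log2 fold change -4.90, SE 0.32, adjusted p = 6.27e-21). *Btbd17*, an astrocyte-enriched gene, had means of 786 ± 179.6 and 28.8 ± 15.4 CPM in control and chronic libraries (SD, n = 5 and 6; 27.2-fold lower). The gliogenic transcription factor gene *Sox9* (chosen after its values were seen) went from 422 ± 25.5 CPM to 22.8 ± 9.42 CPM, 18.5-fold lower.

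Genes of glutamate, water and folate handling fell as well. *Slc1a2* (ENSMUSG00000005089; chromosome 2, 102658659 to 102790784), the glutamate transporter GLT-1, measured 4128, 3518, 2750, 4486 and 3920 CPM in control libraries 1 to 5 and in chronic libraries 133 CPM at the lowest, 272 at the median and 409 at the highest (log2 fold change -3.74, SE 0.28, adjusted p = 4.17e-18). *Aqp4* (ENSMUSG00000024411), the endfoot water channel, measured 965, 975, 834, 989 and 1014 CPM in control libraries 1 to 5 and in chronic libraries 25.5 CPM at the lowest, 65.9 at the median and 96.6 at the highest (log2 fold change -4.0, SE 0.34, adjusted p = 5e-16). *Aldh1l1*, a folate enzyme widely used as an astrocyte marker, had means of 73.2 ± 17.2 and 5.03 ± 4.303 CPM (SD, n = 5 and 6; 14.6-fold lower), with chronic libraries 2, 3 and 5 between 0.6 and 1.69 CPM and libraries 1, 4 and 6 between 7.95 and 10.1 CPM. *Slc1a3*, the gene of GLAST, fell from 179 ± 39.7 CPM to 31.8 ± 4.92 CPM (5.61-fold). *Gm13872* lies antisense to *Slc1a2* and *AC133525.2* to *Aqp4*, *G630022F23Rik* to *Fgfr3* and *Lrp3* to *Slc7a10*, and since it is not known whether counting used strand, counts of genes with such partners are uncertain to that extent.

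Not all genes used as astrocyte markers fell. *Gfap*, the astrocyte intermediate filament gene, measured 47.6, 26.9, 69.1, 50.6 and 50.1 CPM in control libraries 1 to 5 and in chronic libraries 18.8 CPM at the lowest, 43.8 at the median and 82.5 at the highest, and the groups overlapped throughout (log2 fold change -0.10, SE 0.34, adjusted p = 0.969). *S100b* was higher, from 2141 to 3989 CPM in the means, with an adjusted p of 0.000307 but a log2 fold change of 0.90 that stays under the limit of 1. *Glul*, glutamine synthetase, had means of 4174 and 2936 CPM and did not pass. *S100b* and *Glul* are also transcribed by oligodendrocyte lineage cells, whose marker sums are given above. In the intermediate filament list, 8 of 15 tested genes were higher and 2 lower (median 1.57).

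**Figure D3:**
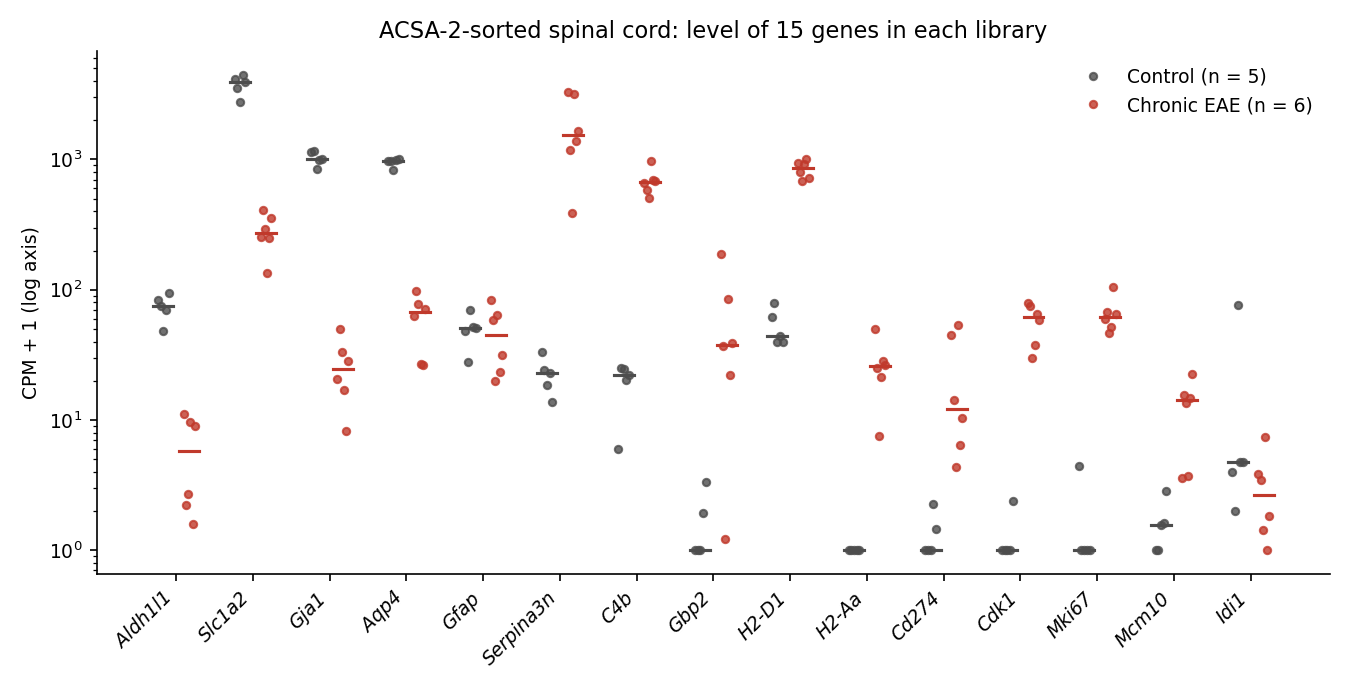
CPM + 1 (log axis) of 15 genes in each control (grey, n = 5) and chronic (red, n = 6) library, with bars at the medians. Astrocyte genes such as *Gja1* (847 to 1170 CPM against 7.2 to 48.9) separate downward, *Gfap* and *Gbp2* overlap, reactive, MHC and cell cycle genes separate upward, and the higher mean of *Idi1* in controls rests on 1 library.

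Transmitter receptors and uptake genes followed the same direction, with 14 of 24 lower, none higher and a median of -2.46. *Slc6a11* (ENSMUSG00000030307; chromosome 6, 114131241 to 114249952), the GABA transporter GAT-3, measured 4266, 4123, 2682, 4127 and 4601 CPM in control libraries 1 to 5 and in chronic libraries 50.7 CPM at the lowest, 95.7 at the median and 238 at the highest (log2 fold change -5.17, SE 0.41, adjusted p = 2.81e-17). All chronic libraries lay below all controls, and library 2 was the highest of the chronic ones. *Grin2c*, an NMDA receptor subunit gene of astrocytes and cerebellar granule cells, fell from 260.3 ± 74.2 CPM to 7.41 ± 3.04 CPM (35.1-fold). Of 22 synapse-organizing genes, 11 were lower and 3 higher (*Il33*, *Nlgn2* and *Nlgn3*), with a median of -1.44. The call of *Il33* was lost without control library 1 or chronic library 1 (log2 fold change 1.13 and 0.725), and that of *Nlgn3* without control library 3, 4 or 5 or chronic library 2, 3, 5 or 6 (0.80 to 0.97). *Gpc5*, a glypican, measured 123 ± 34.3 CPM in controls and 3.14 ± 2.05 in chronic libraries (39.1-fold lower), and *Lgi1*, a secreted synaptic protein, 779 ± 179.9 and 27.4 ± 21.8 CPM (28.4-fold lower). *Gpc5* is a very long gene with antisense partners and *Lgi1* shares its strand with *AC116871.2*, which leaves their counts uncertain.

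In the list for the blood-brain barrier that the study used, 8 of 13 tested genes were lower and none higher (median -1.85). Beside *Gja1* and *Aqp4* these were *Angpt1*, *Kcnj10*, *Pld2*, *Ptgs1*, *Slc2a1* and *Vegfa*. *Vegfa* (ENSMUSG00000023951; chromosome 17, 46016993 to 46032369), a growth factor for vessels, measured 385, 162, 276, 352 and 315 CPM in control libraries 1 to 5 and in chronic libraries 6.896 CPM at the lowest, 10.3 at the median and 22.2 at the highest (log2 fold change -4.45, SE 0.38, adjusted p = 1.11e-15). Its groups did not overlap. *Kcnj10*, the Kir4.1 potassium channel of endfeet, fell from 688 ± 112 CPM to 337 ± 41.6 CPM (2.04-fold), and its change stayed within the limit of 1 without control library 3 or chronic library 4 (-0.97 and -0.99). The call of *Angpt1* was lost without control library 1 or 5 or chronic library 2, 4 or 5 (-1.74 to -1.66). Among growth and vascular factors 9 of 31 genes were lower and 3 higher (*Pdgfa*, *Spp1* and *Tgfa*). The call of *Spp1* was lost without control library 2, 3, 4 or 5 or chronic library 1, 3, 4, 5 or 6 (log2 fold change 3.54 to 3.96), and that of *Tgfa* without control library 1, 2, 4 or 5 or chronic library 1 or 5 (1.14 to 1.29). *Agt*, angiotensinogen, had means of 611 ± 104 and 14.6 ± 8.799 CPM (41.8-fold lower), and *Igfbp2*, a secreted binding protein of insulin-like growth factors, 719 ± 141 and 14.9 ± 7.26 CPM (48.4-fold lower). *Pdgfa* (ENSMUSG00000025856; chromosome 5, 138976014 to 138997370), the ligand of the precursor receptor encoded by *Pdgfra*, measured 41.6, 56.8, 91.2, 63.1 and 59.4 CPM in control libraries 1 to 5 and in chronic libraries 134 CPM at the lowest, 182 at the median and 229.9 at the highest, all higher than in controls (log2 fold change 1.52, SE 0.33, adjusted p = 0.000251).

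Energy and sterol metabolism genes were lower or were not called. Of 20 glycolysis and glycogen genes 9 were lower and none higher (median -1.09). *Pfkp*, a phosphofructokinase, had means of 203 ± 51.7 and 16.2 ± 5.98 CPM (12.6-fold lower), *Pygb*, brain glycogen phosphorylase, of 396 ± 92.98 and 54.9 ± 16.8 CPM (7.21-fold lower), and *Ppp1r3d*, a glycogen-targeting subunit of protein phosphatase 1, of 29.6 ± 5.53 and 2.45 ± 1.82 CPM (12.1-fold lower). In the lactate list 4 of 15 were lower, none higher. Its member *Slc16a4*, a monocarboxylate transporter homologue, was low throughout (8.004 ± 6.18 and 0.556 ± 0.743 CPM), overlapped between groups and lost the call in the fit of spinal cord libraries only and without the 2 chronic libraries of low sheet number. Of 19 cholesterol synthesis genes 9 were lower and none higher (median -0.76). *Sqle*, squalene epoxidase, did not pass the test (91.5 ± 6.72 and 67.7 ± 15.4 CPM in control and chronic libraries). *Idi1* was called with a log2 fold change of -3.06, but control library 3 held 75.4 CPM and no other control more than 3.77, and the value without that library was -0.48 and not called. The call was also lost without chronic library 1, 2, 3, 5 or 6.

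Sterol regulation and lipoprotein genes were lower in 8 of 27 cases and never higher. *Apoe*, the main lipoprotein of the brain, measured 2579, 2437, 1845, 2538 and 3177 CPM in control libraries 1 to 5 and in chronic libraries 336 CPM at the lowest, 380 at the median and 641 at the highest (log2 fold change -2.56, SE 0.34, adjusted p = 8.78e-09). Clusterin (*Clu*), another apolipoprotein, had means of 677 ± 139 and 63.6 ± 18.2 CPM (10.6-fold lower), and *Insig1*, a sterol-sensing inhibitor of SREBP processing, of 100.1 ± 41.97 and 26.8 ± 2.04 CPM (3.74-fold lower), with chronic libraries within 24.3 to 30.0 CPM. *Nr1h3*, the liver X receptor alpha gene, held at most 1.48 CPM in any chronic library and was at 0 in control library 2, so that its groups overlapped (log2 fold change -2.90, SE 0.69, adjusted p = 0.00112), and the call was lost in the fit of spinal cord libraries only. The list median was -0.23, and 19 of the 27 were not called.

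The interferon-stimulated list rose in the largest share of the 31 gene lists plotted, a rank that depends on lists chosen with earlier results of these data known. Of its 44 genes 36 were higher and 1, *Lgals3bp*, lower (not without control library 5 or chronic library 3, 5 or 6, at -0.96 to -0.73), and the median log2 fold change was 3.95, or 3.12 with genes undetected in one group set to their bounds. The summed level was 240 to 429 CPM in controls. In chronic libraries 1 to 6 it was 5936, 1997, 682, 5115, 1315 and 1278 CPM, so libraries 1 and 4 stood far above library 3, which was still above all controls. *Iigp1* (ENSMUSG00000054072), an immunity-related GTPase, measured 0.496, 0, 4.87, 1.57 and 5.62 CPM in control libraries 1 to 5 and in chronic libraries 37.2 CPM at the lowest, 174 at the median and 777 at the highest (log2 fold change 7.05, SE 0.82, adjusted p = 1.14e-10). *Cd274* (ENSMUSG00000016496; chromosome 19, 29367455 to 29388095), which encodes the T cell checkpoint ligand PD-L1, measured 0, 0, 0, 1.26 and 0.468 CPM in control libraries 1 to 5 and in chronic libraries 3.38 CPM at the lowest, 11.2 at the median and 52.7 at the highest (log2 fold change 5.72, SE 0.98, adjusted p = 4.72e-06). Both genes were higher in all chronic libraries, with libraries 1 and 4 the highest and library 3 the lowest.

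Guanylate-binding proteins, GTPases induced by interferon, showed a like spread. *Gbp2* measured 0, 0, 0, 0.942 and 2.34 CPM in control libraries 1 to 5 and 187, 36.1, 0.211, 83.1, 21.0 and 37.8 CPM in chronic libraries 1 to 6 (log2 fold change 6.59, SE 1.01, adjusted p = 3.16e-07), so library 3 overlapped the controls. *Gbp4* was at 0 in all controls and in chronic libraries 3 and 5, with a mean of 15.4 ± 16.2 CPM in chronic libraries, at least 13.6-fold higher. *Gbp6* rested on chronic library 2, with 51.05 CPM against at most 4.54 elsewhere, and lost the call when that library or any 1 control library was left out. These genes belong to a family of related neighbours, between which reads may be split. *Irf7*, an interferon regulatory transcription factor, went from 0.762 ± 0.927 CPM to 31.2 ± 23.4 CPM (40.9-fold).

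Antigen presentation genes rose with them. In MHC class I presentation 16 of 22 genes were higher and none lower (median 2.09, or 1.87 with bounds). *H2-D1* (ENSMUSG00000073411; chromosome 17, 35262730 to 35267499), a classical class I heavy chain, measured 60.98, 78.4, 38.7, 43.02 and 38.8 CPM in control libraries 1 to 5 and in chronic libraries 682 CPM at the lowest, 862 at the median and 998 at the highest (log2 fold change 4.02, SE 0.43, adjusted p = 5.98e-12). *H2-Q7* was at 3 or fewer counts in each control and at 45.5 ± 22.3 CPM in chronic libraries, at least 40.1-fold higher, and *H2-Q4* at least 9.11-fold, although class I genes of this cluster share sequence and their counts are uncertain. Beta-2-microglobulin (*B2m*) went from 82.4 ± 9.38 CPM to 989 ± 289 CPM (12-fold), and the immunoproteasome gene *Psmb8* from 2.96 ± 2.77 CPM to 147 ± 139 CPM. Chronic libraries held 682 to 998 CPM of *H2-D1* and 670.3 CPM at the lowest, 964 at the median and 1471 at the highest of *B2m*.

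In MHC class II, 5 of 11 genes were higher, *Cd74*, *H2-Aa*, *H2-Ab1*, *H2-DMb1* and *H2-Eb1*, and none lower (median 3.68, or 2.57 with bounds). The list summed to 0 to 3.28 CPM in controls and to 203, 111, 35.7, 81.8, 126 and 89.9 CPM in chronic libraries 1 to 6. *H2-Aa* (ENSMUSG00000036594; chromosome 17, 34282744 to 34287823) measured 0 in each control library and in chronic libraries 6.55 CPM at the lowest, 24.8 at the median and 48.9 at the highest, at least 22.5-fold higher (adjusted p = 2.76e-06). *H2-Eb1* (ENSMUSG00000060586; chromosome 17, 34305867 to 34316674), whose promoter is shown above, measured 0 in each control library and in chronic libraries 8.04 CPM at the lowest, 31.4 at the median and 56.4 at the highest, at least 27.7-fold higher (adjusted p = 1.51e-06). Both chains were detected in all 6 chronic libraries. *Ciita*, the activator of class II genes, was above the floor in chronic libraries 1, 4 and 5, at 2.40 to 4.47 CPM, and did not pass (adjusted p = 0.0558). Myeloid cells and B cells also transcribe class II genes, and the myeloid sum was higher in all chronic libraries, as given above.

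Reactive genes of the lists that the study used were higher in part. Of 13 pan-reactive genes 6 were higher and 1, *Aspg*, lower (not called without control library 4, at -2.53, median 1.96, or 1.18 with bounds). *Serpina3n* (ENSMUSG00000021091; chromosome 12, 104406729 to 104414329), a secreted protease inhibitor of the acute phase, measured 32.2, 23.3, 17.5, 21.98 and 12.6 CPM in control libraries 1 to 5. Chronic libraries 1 to 6 held 3316, 1173, 388, 3190, 1391 and 1667 CPM, all above all controls (log2 fold change 6.43, SE 0.58, adjusted p = 8.52e-15). *Hspb1*, a small heat shock protein gene, was at 0 in all controls and at 5.46 ± 4.401 CPM in chronic libraries, at least 4.805-fold higher. *Lcn2*, lipocalin 2, was called by the test (adjusted p = 0.0475) but held at most 3.60 CPM in any chronic library and lost the call in 13 of 21 alternative fits, among them those without any 1 control library. Of 11 genes listed as induced by lipopolysaccharide (LPS), 8 were higher (median 4.13), and of 11 listed for ischemia by occlusion of the middle cerebral artery (MCAO), 4 were (median 2.44, or 0.95 with bounds). Of these 4 only 1 reached a mean of 5 CPM in the higher group. The summed MCAO list overlapped between groups, at 19.7 to 47.1 CPM in controls and 12.7 to 127.5 CPM in chronic libraries. *S100a10* of the latter list overlapped between groups (13.2 ± 8.79 and 31.7 ± 21.4 CPM) and lost the call in 7 of 21 alternative fits, among them those without control library 2 or 3 or without chronic library 1 or 2.

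Complement and signal relay genes completed this group. Their counts stand against 5.16% higher and 9.57% lower among all genes. Of 13 complement genes 3 were higher and 1, *Cd46*, lower. *C4b* (ENSMUSG00000073418; chromosome 17, 34728380 to 34743882), complement component 4, measured 4.96, 24.3, 23.5, 19.1 and 21.1 CPM in control libraries 1 to 5 and in chronic libraries 506 CPM at the lowest, 671 at the median and 969 at the highest (log2 fold change 5.18, SE 0.44, adjusted p = 9.46e-16). All chronic libraries lay far above all controls. *Serping1*, the C1 inhibitor, had means of 0.377 ± 0.843 and 12.6 ± 11.9 CPM (33.5-fold higher). Control library 4 (1.88 CPM) was the only control above 0 for it, and without that library the rise was at least 10.7-fold. *C3* did not pass the test (3.48 ± 3.51 and 9.47 ± 9.13 CPM). Among cytokine receptors and signal relay genes 9 of 38 were higher, 5 lower and 24 not called (median 0.44). *Socs3*, a feedback inhibitor of cytokine signaling, was at 3 or fewer counts in each control and measured 2.75 CPM at the lowest, 28.9 at the median and 114 at the highest in chronic libraries, at least 37.01-fold higher. *Atf3*, a stress-induced transcription factor, was higher by at least 5.19-fold, with library 1 at 21.9 CPM and the rest at 6.82 or less. Of 15 chemokine genes 10 were not called, while *Ccl2*, *Ccl5* and *Cxcl9* were higher and *Cx3cl1* and *Cxcl14* lower. The call of *Ccl2* was lost without chronic library 1 (adjusted p = 0.123). *Ccl5* had means of 0.314 ± 0.702 and 9.63 ± 8.85 CPM, and *Cxcl14*, which controls transcribed strongly, of 452 ± 84.2 and 36.5 ± 11.3 CPM (12.4-fold lower). *Il1b*, an inflammatory cytokine, and *Clec7a*, a myeloid lectin receptor, were at 0 in controls and at means of 3.93 and 6.28 CPM in chronic libraries.

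Cell division genes rose. Of 35 mitosis genes 24 were higher and none lower (median 4.12, or 3.68 with bounds), and of 32 DNA replication genes 16 were higher and none lower (median 1.76, or 1.44). The mitosis list summed to 209 to 379 CPM in controls and to 1820, 1806, 1224, 1149, 2143 and 1660 CPM in chronic libraries 1 to 6, all above all controls. *Mki67* (ENSMUSG00000031004; chromosome 7, 135689784 to 135716361), a marker of cycling cells, measured 3.47, 0, 0, 0 and 0 CPM in control libraries 1 to 5 and in chronic libraries 45.9 CPM at the lowest, 61.2 at the median and 104 at the highest (log2 fold change 6.74, SE 1.32, adjusted p = 5.37e-05). *Cdk1* (ENSMUSG00000019942; chromosome 10, 69335146 to 69352938), the kinase of entry into mitosis, measured 0, 0, 0, 0 and 1.404 CPM in control libraries 1 to 5 and in chronic libraries 28.97 CPM at the lowest, 60.98 at the median and 77.8 at the highest, at least 49.7-fold higher (adjusted p = 1.72e-05). Both were higher in all chronic libraries. Without control library 1, *Mki67* was at 0 in the remaining controls and at least 62.1-fold higher. *Ube2c*, whose promoter is shown above, measured 0.496, 0, 0, 0 and 0 CPM in control libraries 1 to 5 and in chronic libraries 12.7 CPM at the lowest, 23.7 at the median and 48.4 at the highest, at least 24.2-fold higher.

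*Top2a*, the topoisomerase of dividing cells, had means of 8.54 ± 8.499 and 332 ± 117 CPM (38.9-fold higher). Of the replication genes, *Mcm5*, a subunit of the replicative helicase, rose from 3.84 ± 2.71 CPM to 39.8 ± 9.86 CPM (log2 fold change 3.38, SE 0.71, adjusted p = 0.000163). *Cdt1* and *Mcm10*, which license and fire origins, had means of 0.388 ± 0.584 and 8.53 ± 5.26 CPM and of 0.615 ± 0.764 and 11.3 ± 7.35 CPM, and their calls were lost in 4 and 10 of 21 alternative fits, for *Cdt1* among them those without control library 1, 3 or 5 and for *Mcm10* those without control library 1, 2, 3 or 4 or chronic library 2, 3, 5 or 6. Among cyclin D genes and cell cycle inhibitors 6 of 15 were higher and 1, *Gas1*, lower. *Ccnd1*, cyclin D1, measured 75.8, 48.2, 50.2, 28.6 and 21.5 CPM in control libraries 1 to 5 and in chronic libraries 275 CPM at the lowest, 471 at the median and 682 at the highest (log2 fold change 3.36, SE 0.52, adjusted p = 4.06e-07). The inhibitors *Cdkn2a* (0.7601 ± 0.9999 and 13.3 ± 6.08 CPM) and *Cdkn2c* (0.8896 ± 1.29 and 12.1 ± 5.51 CPM) were higher too, but their calls were lost in 8 and 7 of 21 alternative fits, for both among them those without control library 1 or 4 or chronic library 1 or 5. Markers of oligodendrocyte precursors, a cell type that divides in adult cord, were higher in the same libraries, with *Pdgfra* at 72.9, 72.8, 61.4, 44.3 and 51.9 CPM in control libraries 1 to 5 and in chronic libraries 153 CPM at the lowest, 327 at the median and 352 at the highest (log2 fold change 2.26, SE 0.52, adjusted p = 0.000628). Their part in the rise of cell division genes was not tested.

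Genes of the oligodendrocyte lineage were higher or not called. Of the 10 markers of mature oligodendrocytes *Cldn11*, a tight junction gene of myelin, and *Ermn*, a gene of its cytoskeleton, rose, with means of 806 and 2639 CPM and of 628 and 1618 CPM in control and chronic libraries (log2 fold change 1.71 and 1.36, adjusted p = 0.00134 and 0.0145), and none fell. All 5 precursor markers rose, as given above. *Mbp* and *Mog*, which encode myelin proteins, had means of 2019 ± 1000 and 3332 ± 688 CPM and of 224 ± 118 and 308 ± 85.6 CPM and did not pass the test (adjusted p = 0.133 and 0.541). Control library 3 stood above the other controls for *Mbp* (3763 CPM), and without it *Mbp* was called higher (log2 fold change 1.05). Of 10 lineage factors 4 were higher, among them *Nkx2-2*, *Nkx6-2* and *Sox10*, and none lower, and the call of *Nkx2-2* was lost without control library 2 (adjusted p = 0.0501). *Nkx6-2*, a homeobox factor, had means of 50.8 ± 26.98 and 165 ± 72.7 CPM (3.25-fold higher). *Olig1* (682 ± 130.1 and 1044 ± 175 CPM) and *Olig2* (695 ± 153 and 808 ± 212 CPM) did not pass.

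Matrix and cytoskeletal genes divided into both directions. Of 34 matrix and scar genes 13 were higher and 6 lower. *Vcan*, the proteoglycan versican (chosen after its values were seen), rose from 112 ± 49.8 CPM to 731 ± 229.5 CPM (6.53-fold), whereas *Bcan*, brevican, fell from 924 ± 168 CPM to 185 ± 91.3 CPM (5.01-fold). *Col6a2*, a collagen VI chain, and *Lgals3*, galectin 3, were at 0 in all controls and at 7.82 ± 2.995 CPM and 7.301 ± 5.48 CPM in chronic libraries, at least 6.88-fold and 6.43-fold higher. *Tagln2* (ENSMUSG00000026547; chromosome 1, 172500047 to 172507380), transgelin 2, measured 16.9, 19.03, 10.6, 15.1 and 4.68 CPM in control libraries 1 to 5 and in chronic libraries 341 CPM at the lowest, 486 at the median and 644 at the highest (log2 fold change 5.17, SE 0.73, adjusted p = 4.46e-08). *Nes*, the progenitor filament nestin, had means of 0.262 ± 0.587 and 11.8 ± 7.56 CPM (45.1-fold higher), but control library 2 (1.31 CPM) was the only control above 0, and without it the rise was at least 10.1-fold. *Vim*, vimentin, rose from a low level, with means of 5.69 ± 3.05 and 22.5 ± 18.1 CPM, library 1 at 58.5 CPM and a log2 fold change of 1.96, or 1.36 without that library.

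Genes of hedgehog, Notch, Wnt and BMP signaling fell in part. In the hedgehog pathway 8 of 12 genes were lower and none higher (median -3.14, or -2.33 with bounds), among them *Boc*, *Gas1*, *Gli1*, *Gli2*, *Gli3*, *Ptch1* and *Smo*. *Ptch1*, the hedgehog receptor and a target of the pathway, measured 297, 236, 239.9, 285 and 322 CPM in control libraries 1 to 5 and in chronic libraries 22.3 CPM at the lowest, 38.2 at the median and 66.4 at the highest (log2 fold change -2.72, SE 0.26, adjusted p = 4.37e-14). *Smo* (ENSMUSG00000001761; chromosome 6, 29735503 to 29761365), the signal transducer, measured 33.2, 8.201, 20.4, 33.6 and 49.6 CPM in control libraries 1 to 5 and in chronic libraries 0 CPM at the lowest, 0.904 at the median and 2.14 at the highest (log2 fold change -4.95, SE 0.74, adjusted p = 2.08e-07). *Boc*, a coreceptor, had means of 67.95 ± 22.5 and 2.01 ± 2.06 CPM (33.8-fold lower). Neither *Ptch1*, *Smo* nor *Boc* overlapped between groups. In Notch, Wnt and BMP signaling 15 of 33 genes were lower and none higher. *Hes1*, a Notch effector, measured 153, 144, 144, 159 and 131 CPM in control libraries 1 to 5 and in chronic libraries 1.36 CPM at the lowest, 5.15 at the median and 17.3 at the highest (log2 fold change -4.52, SE 0.50, adjusted p = 1.43e-11), and *Sfrp5*, a Wnt antagonist, had means of 241 ± 56.8 and 7.86 ± 6.46 CPM (30.6-fold lower).

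Of 31 cord patterning factors 11 were lower and 2 higher (median -1.52). *Nkx6-1* (ENSMUSG00000035187; chromosome 5, 101658139 to 101664996), a ventral homeobox factor, measured 51.1, 68.6, 65.7, 71.3 and 74.4 CPM in control libraries 1 to 5 and in chronic libraries 0.611 CPM at the lowest, 1.27 at the median and 5.29 at the highest (log2 fold change -4.91, SE 0.69, adjusted p = 3.22e-08). *Hoxc6*, a Hox gene of the cervical and thoracic cord, had means of 112 ± 20.2 and 15.6 ± 6.85 CPM (7.203-fold lower), and it shares its strand with *Hoxc5*, which leaves its count uncertain. The opposite movement of *Nkx6-1* and of its relative *Nkx6-2*, which rose, was seen in all libraries of each group.

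Some antioxidant and phagocytic genes moved in each direction, and most were not called. Of 25 antioxidant and metal-binding genes 5 were higher and 6 lower. *Slc7a11*, the cystine-glutamate exchanger, had means of 41.4 ± 10.7 and 1.84 ± 2.16 CPM (22.4-fold lower) and *Gsta4*, a glutathione transferase, of 41.3 ± 13.02 and 3.05 ± 2.97 CPM (13.6-fold lower). Among 26 phagocytosis and lysosome genes 5 were lower, 3 higher and 18 not called (median 0.055), against 9.57% lower and 5.16% higher among all genes. *Mertk*, a receptor for uptake of dying cells and synapses, measured 138, 198, 110.1, 203 and 169.9 CPM in control libraries 1 to 5 and in chronic libraries 6.55 CPM at the lowest, 9.36 at the median and 14.7 at the highest (log2 fold change -4.07, SE 0.39, adjusted p = 1e-13), and *Gulp1*, an engulfment adaptor, had means of 13.2 ± 3.15 and 1.51 ± 1.27 CPM (8.77-fold lower). Of 16 immediate early genes 5 were higher and none lower, among them *Fos* with means of 2.56 ± 2.86 and 44.5 ± 22.9 CPM (17.4-fold) and *Junb* with 5.001 ± 3.01 and 49.01 ± 32.5 CPM (9.801-fold).

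The largest rises and falls at 5 CPM or more lay at genes absent from one group, so their folds are lower bounds. *Piezo2* (ENSMUSG00000041482), a mechanosensitive ion channel, was at 0 in all controls and measured 22.6 CPM at the lowest, 46.6 at the median and 53.9 at the highest in chronic libraries, at least 38.6-fold higher (adjusted p = 3.03e-07). *Lyz2*, lysozyme of myeloid cells, and *Fcgr2b*, an inhibitory Fc receptor, were at 0 in controls and measured 2.11 to 69.8 and 3.81 to 79.01 CPM in chronic libraries, in each case with library 3 lowest and library 1 highest. The kallikreins *Klk8* and *Klk9* (at least 12.3-fold and 10.98-fold) and the imprinted RNA *H19* (at least 11.9-fold) were the other rises. *Pdgfrl*, a PDGF receptor-like gene, was at 0 in all chronic libraries and measured 38.2, 38.7, 6.88, 24.8 and 27.1 CPM in control libraries 1 to 5, at least 30.5-fold lower in chronic EAE. *Map3k19*, *Slc25a34*, *Sdsl*, *Amhr2*, *Npas2* and *Egfros* were likewise at 0 in all chronic libraries and had control means of 15.5, 13.8, 11.5, 10.1, 9.29 and 8.48 CPM. *Acvr1c*, an activin receptor, went from 42.1 ± 9.33 CPM to 0.423 CPM in chronic library 3 and 0 in the others. *Egfros* is antisense to *Egfr*, itself a gene that fell.

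Chronic libraries were next set against the mean of the acute stages, which uses no control library. Of the 23324 genes, 659 were higher (2.83%) and 417 lower (1.79%) in chronic libraries. Astrocyte identity genes were lower than in the acute stages in 21 of 32 cases and higher in none, but at score 4 the list summed to 9293 to 17640 CPM, a range that contains that of chronic libraries, whereas at score 1 it summed to 22110 to 79030 CPM. One library of score 1 is spinal cord by its title and hindbrain by its region label, and without it 1009 genes were called and 1 astrocyte identity gene was higher. Mitosis genes were higher in 5 cases of 35 and lower in none, and oligodendrocyte precursor markers in 5 of 5. *Pdgfra* had means of 111 ± 53.5 CPM at score 1, 98.3 ± 40.3 CPM at score 4 (SD, n = 5 and 6) and 290.4 ± 78.1 CPM in chronic libraries (log2 fold change 1.48, SE 0.39, adjusted p = 0.0121).

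**Figure D4:**
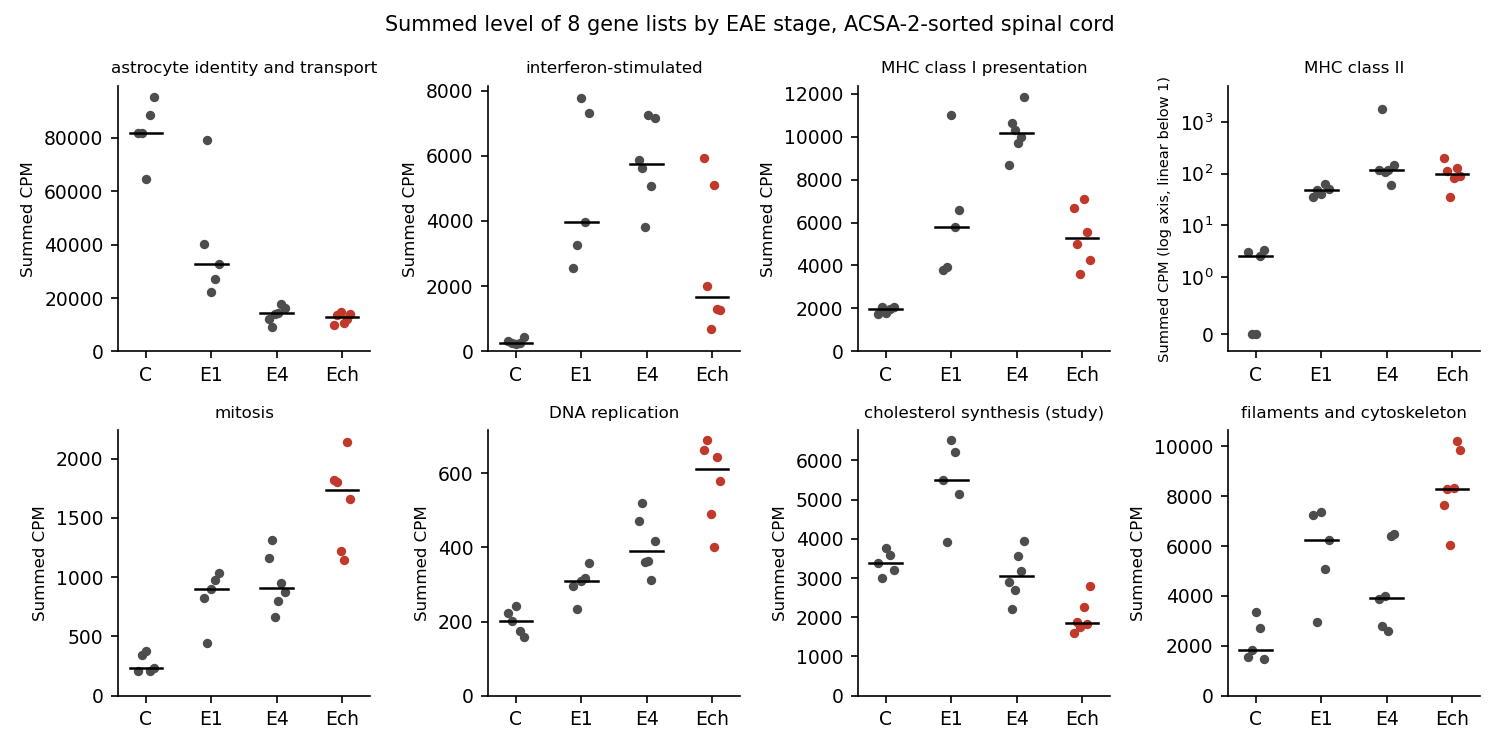
Summed CPM of 8 gene lists in each ACSA-2-sorted spinal cord library, ordered by group as C, E1, E4 and Ech (red), with bars at the medians (MHC class II on a log axis that is linear below 1). Astrocyte identity is similar at E4 and Ech (9293 to 17640 and 9720 to 14840 CPM), interferon genes are lower in 4 of 6 chronic libraries than at any acute library, and mitosis reaches its highest values at Ech.

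Immune genes that were called against the acute stages were mostly lower. Interferon-stimulated genes were lower in 6 of 44 cases and higher in none, with a summed median of 3980 CPM at score 1, 5753 at score 4 and 1656 in chronic libraries. MHC class II genes passed in neither direction, which does not show that their levels were equal. Of 12 myeloid markers 4 were lower, and of 11 LPS-listed genes 1 was higher and none lower. Library 2 of score 4 stood apart, with a myeloid sum of 3518 CPM against 108 to 241 CPM in the other libraries of that score. Its MHC class II sum was 1782 CPM against 60.05 to 145 CPM in those libraries. *Il1b* had means of 15.2 ± 18.4 CPM, 67.03 ± 137 CPM and 3.93 ± 3.04 CPM in the order score 1, score 4 and chronic (log2 fold change -3.01, SE 0.88, adjusted p = 0.0257). Its mean at score 4 rested on the same library 2, with 347 CPM against 1.69 to 17.4 CPM in the others, and without it the change was -1.73 and not called (adjusted p = 0.185). The call was also lost without score 1 library 4 or chronic library 2, 5 or 6. *Gfap* had means of 193 ± 76.7 CPM, 105 ± 26.2 CPM and 45.7 ± 25.6 CPM and was lower in chronic libraries (log2 fold change -1.64, SE 0.30, adjusted p = 9.39e-05). Cholesterol synthesis genes were lower in 7 of 19 cases, with summed levels of 3923 to 6524 CPM at score 1, 2209 to 3940 at score 4 and 1595 to 2798 in chronic libraries.

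Among genes called with no overlap between chronic and acute libraries, the largest rises were those of *Npb*, *Prdm8*, *Dpysl4*, *Pnma3* and *Cenph*. *Prdm8*, a transcriptional repressor, measured 0.909 CPM at the lowest, 6.36 at the median and 7.82 at the highest in chronic libraries and means of 0.0996 and 0.137 CPM at score 1 and score 4 (log2 fold change 5.03, SE 0.74, adjusted p = 1.32e-06). *Dpysl4* (log2 fold change 4.01, SE 0.84, adjusted p = 0.000793) and *Npb* (log2 fold change 5.21, SE 1.22, adjusted p = 0.00308), the gene of neuropeptide B, were also detected in some controls and did not pass the test against these. The call of *Cenph* (adjusted p = 0.0496) was lost in 19 of 24 alternative fits. The largest falls were those of *Ppp1r1b*, *Htra1*, *Insig1*, *Zbtb16* and *Elmsan1*. *Htra1*, a secreted serine protease, had means of 1036 ± 172 CPM in controls, 532 ± 397 CPM at score 1, 169 ± 32.7 CPM at score 4 and 65.4 ± 28.2 CPM in chronic libraries (log2 fold change -2.19, SE 0.23, adjusted p = 1.02e-10), and *Ppp1r1b*, a regulator of protein phosphatase 1, of 83.4 ± 27.5 CPM, 43.5 ± 38.7 CPM, 6.43 ± 1.54 CPM and 1.87 ± 1.56 CPM (log2 fold change -3.03, SE 0.38, adjusted p = 2.94e-08). *Zbtb16* had means of 38.5 ± 12.98 CPM at score 1, 55.8 ± 14.2 CPM at score 4 and 10.7 ± 3.44 CPM in chronic libraries, and *Elmsan1* of 35.1 ± 6.001 CPM, 35.9 ± 11.04 CPM and 8.94 ± 3.45 CPM, and for both genes chronic and control libraries overlapped.

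The chronic change was then tested for a difference between spinal cord and hindbrain GLASTneg libraries. Most astrocyte identity genes had a lower response in spinal cord. The number that opens a library label recurs in both regions for 5 chronic and 2 control pairs of libraries, and whether it marks the same mice is not stated, so these libraries may not be independent. Of 23324 genes, 359 had a higher (1.54%) and 1228 a lower (5.26%) response in spinal cord, and among astrocyte identity genes 26 of 32 had a lower and none a higher one. With that number as a fixed block 339 genes had a higher and 1082 a lower response, and of the astrocyte identity genes 27 had a lower one. Sheet numbers also differed between the regions, at 32 to 51 in control and 25 to 53 in chronic hindbrain libraries. In spinal cord they were 60 to 83 and 47 to 70. With a sheet number term 305 genes had a higher and 1099 a lower response in spinal cord. *Gja1* changed by -0.61 on the log2 scale in hindbrain and by -5.35 in spinal cord (difference -4.74, SE 0.57, adjusted p = 1.25e-09), and *Slc1a2* by -0.17 and -3.74 (difference -3.57, SE 0.38, adjusted p = 1.86e-11). Hindbrain *Slc1a2* had means of 6552 ± 765 and 5820 ± 681 CPM in control and chronic libraries (SD, n = 5 and 6). *Gfap* rose in hindbrain, from 29.5 ± 5.66 to 111 ± 38.3 CPM (log2 fold change 1.92), and was not called in spinal cord (difference -2.02, SE 0.49, adjusted p = 0.00294). The difference of *Gfap* was not called by limma-voom, with or without the label number as a random block (adjusted p = 0.0866 with it). Hedgehog genes had a lower response in cord in 8 of 12 cases and transmitter genes in 13 of 24.

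**Figure D5:**
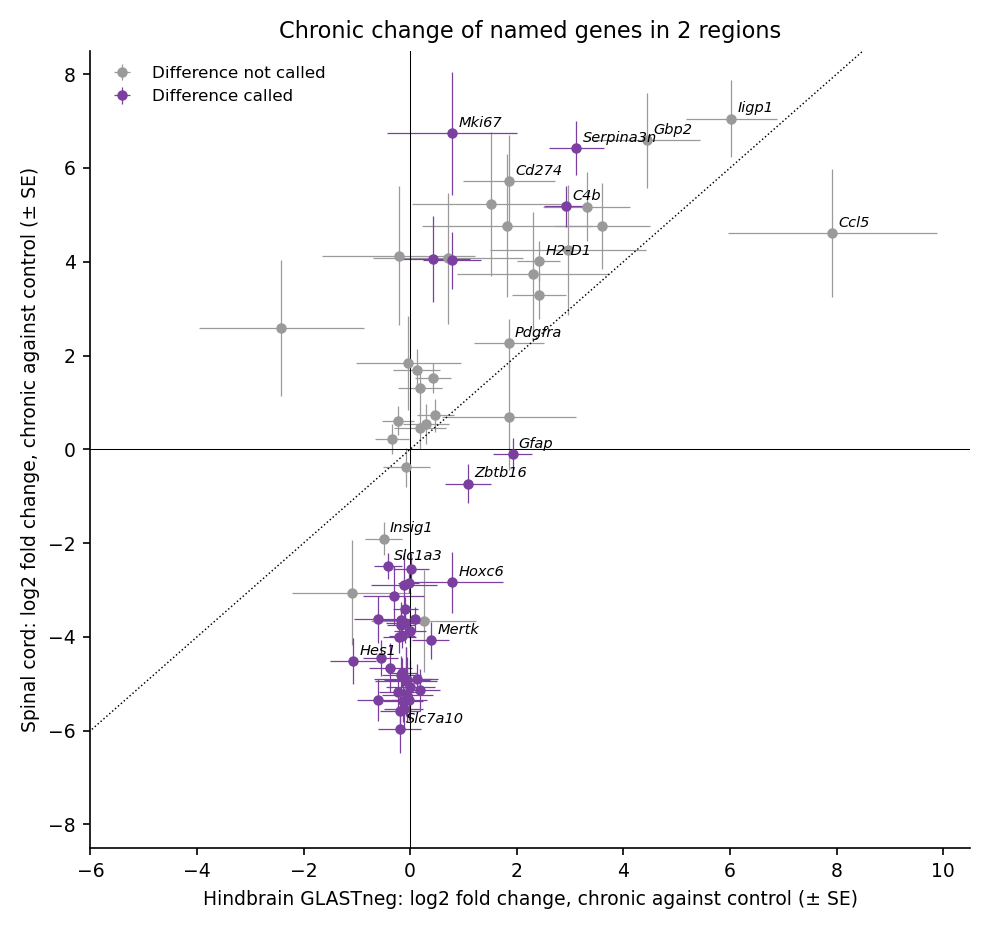
Log2 fold change ± SE, chronic against control, of 72 named genes in hindbrain GLASTneg (x axis) and in ACSA-2-sorted spinal cord (y axis), with purple points where the difference between regions was called (42 genes) and a dotted line of equal change. Astrocyte genes such as *Gja1* (-0.61 in hindbrain, -5.35 in spinal cord) lie well under the line, *Serpina3n* and *C4b* lie above it, and *Gfap* was called higher in hindbrain and not in spinal cord.

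Few immune genes were called for a difference in response between the regions, which does not show that the responses were equal. Of 44 interferon-stimulated genes 3 had a higher and 1 a lower response in spinal cord (median difference 1.025, against -0.03 for all genes). With the label number as a fixed block these counts were 5 and 3, and by limma-voom 0 and 1. Of 22 MHC class I presentation genes 1 had a higher response (median 1.32), or 3 with the fixed block. Of MHC class II genes none was called in either direction (median 1.305). Complement genes had a median difference of 0.119 and chemokine genes of -1.12. *Serpina3n* rose in both regions (3.12 on the log2 scale in hindbrain) and more in spinal cord (difference 3.31, SE 0.68, adjusted p = 0.000282), as did *C4b* (2.92 in hindbrain; difference 2.26, SE 0.53, adjusted p = 0.00193). By limma-voom the differences of *Serpina3n* and *C4b* were not called, with or without the label number as a random block (adjusted p = 0.724 and 0.239 with it). *Mki67* had a hindbrain change of 0.79 that did not pass and a larger one in cord (difference 5.95, SE 1.80, adjusted p = 0.0268), and mitosis genes had a higher response in cord in 6 of 35 cases. The difference of *Mki67* was not called without hindbrain control library 4 (1.42) or spinal cord control library 4 (5.61) or with the label number as a fixed block (1.34), and limma-voom called 19 mitosis genes higher. The largest higher responses were those of *Clca3a1*, *Col6a2* and *Exo1*, which are at 0 in cord controls, so that their fitted sizes depend on the prior count. Their calls were lost without 1 hindbrain control library, library 3 for *Clca3a1* and library 1 for *Col6a2* and *Exo1*, and for *Clca3a1* and *Exo1* also by DESeq2. The 3 largest lower responses were those of *Nat8f7*, *AK157302* and *Pdgfrl*. *Nat8f7* and *AK157302* rest on control library 4, with 147 and 39.9 CPM against at most 0.936 CPM in the other controls, and neither was called without it. By DESeq2 neither was called, *Nat8f7* was not called without hindbrain chronic library 2, and *AK157302* was not called without hindbrain control library 1, 3, 4 or 5 or hindbrain chronic library 1, with a replicate block or with a sheet number term.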

How the data were processed

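GLASTneg and other astrocyte fractions of EAE and unimmunized mice were sequenced as 3′ tag libraries. Per the labels and the study's methods, the authors aligned reads to GRCm38 with HISAT and used HTSeq (union mode, Ensembl annotation) for counting, and deposited raw counts for 48526 genes in 66 libraries. Whether counting used strand is not given in the sources used here. Genes under 10 counts in total were dropped, and the rest were scaled by TMM and tested with edgeR 4.0.16 (R 4.3.3) by the two-sided quasi-likelihood test with Benjamini-Hochberg adjustment, in 1 fit of all 12 groups. A call needed an adjusted p under 0.05 and an absolute log2 fold change above 1. Standard errors were taken as the fold change divided by the root of F. The code was tested on simulated data. Cell type markers, gene lists and members were chosen with earlier results of these data known. Named were genes the study names, the 8 largest changes in each direction (at 5 CPM or more, groups not overlapping), the 2 largest of each list, 5 in each direction against the acute stages and 3 in each direction between regions. *S100b*, *Glul*, *Kcnj10*, *Sqle*, *Irf7*, *B2m*, *Psmb8*, *Ciita*, *C3*, *Top2a*, *Mcm5*, *Ccnd1*, *Bcan*, *Ptch1* and *Vim* were chosen after their values were seen. Alternatives were DESeq2 1.42.0 size factors and test, other filters, subsets of libraries, a sheet number term, a replicate block, a test against the fold limit, and each library left out. Between regions, the number that opens a label as a block in edgeR or limma-voom 3.58.1 was added after the data had been seen. Some genes that the rule names are not reported here. Samples of the series outside the EAE experiment were not analysed here.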

Additional observations from a re-analysis of the deposited data

Results flagged for a closer look

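In 37 of 246 groups of libraries tested by Dixon's criterion, 1 library lay apart from the others. The criterion's chance rate of about 1 in 20 groups holds for normally distributed values. A group with 1 library above 0 and the rest at 0 is always flagged, as for *Ube2c* in controls. The count of flags therefore cannot be set against that rate. Control library 1 was highest for *Mki67* (3.47 CPM), *Pnma3* (8.92 CPM) and *Ube2c* (0.496 CPM). Control library 2 was highest for *Nes* (1.31 CPM). Control library 3 was highest for the summed neutrophil markers (1.15 CPM), the summed oligodendrocyte markers (42490 CPM), *Idi1* (75.4 CPM) and *Mbp* (3763 CPM). Control library 4 was highest for *AK157302* (39.9 CPM), *Ccl5* (1.57 CPM), *Cenph* (2.83 CPM), *Nat8f7* (147 CPM), *Prdm8* (1.26 CPM) and *Serping1* (1.88 CPM). Control library 5 was highest for the summed B cell markers (0.468 CPM), *Cdk1* (1.404 CPM), *Clu* (920 CPM), *Hoxc6* (148 CPM), *Ppp1r1b* (132 CPM) and *Sfrp5* (338 CPM). Control library 1 was lowest for *C4b* (4.96 CPM). Control library 3 was lowest for *Aqp4* (834 CPM), *Gulp1* (7.74 CPM) and *Slc6a11* (2682 CPM). Chronic library 1 was highest for *Atf3* (21.9 CPM), *Fcgr2b* (79.01 CPM) and *Junb* (112 CPM). Chronic library 2 was highest for *Gbp6* (51.05 CPM), *Sfrp5* (20.5 CPM) and *Slc6a11* (238 CPM). Chronic library 3 was highest for the summed B cell markers (2.11 CPM) and *Acvr1c* (0.423 CPM). Chronic library 4 was highest for *Slc7a11* (5.91 CPM). Chronic library 5 was highest for *Mki67* (104 CPM) and *Npb* (20.7 CPM). Chronic library 6 was highest for the summed fibroblast markers (73.7 CPM) and *Hes1* (17.3 CPM).

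The chronic change differed between spinal cord and hindbrain GLASTneg libraries for 57 named genes by edgeR's test of the difference, given here as the spinal cord minus the hindbrain log2 change. The response in spinal cord was lower for genes at or near 0 in chronic libraries, *Nat8f7* (-11.99), *AK157302* (-10.13), *Pdgfrl* (-8.72), *Sdsl* (-8.43), *Map3k19* (-8.36), *Slc25a34* (-8.22), *Acvr1c* (-7.90), *Npas2* (-7.76), *Egfros* (-7.57) and *Amhr2* (-7.48). It was also lower for *Slc7a10* (-5.77), *Gjb6* (-5.41), *Igfbp2* (-5.39), *Ppp1r1b* (-5.33), *Grin2c* (-5.32), *Agt* (-5.24), *Gpc5* (-5.18), *Boc* (-5.07) and *Fgfr3* (-5.03). A smaller difference in the same direction was found for *Slc6a11* (-4.94), *Smo* (-4.87), *Sfrp5* (-4.87), *Nkx6-1* (-4.82), *Gja1* (-4.74), *Lgi1* (-4.65), *Btbd17* (-4.62), *Mertk* (-4.46) and *Slc7a11* (-4.28). Further genes with a lower response in spinal cord were *Vegfa* (-3.90), *Aldh1l1* (-3.86), *Htra1* (-3.83), *Aqp4* (-3.80), *Cxcl14* (-3.72), *Gsta4* (-3.62), *Hoxc6* (-3.62), *Slc1a2* (-3.57), *Pfkp* (-3.46), *Hes1* (-3.45), *Clu* (-3.31) and *Ppp1r3d* (-3.02), and then *Pygb* (-2.82), *Gulp1* (-2.81), *Nr1h3* (-2.79), *Apoe* (-2.58), *Slc1a3* (-2.07), *Gfap* (-2.02) and *Zbtb16* (-1.81). A higher response in spinal cord was found for *C4b* (2.26), *Fos* (3.25), *Serpina3n* (3.31), *Prdm8* (3.62), *Mki67* (5.95), *Fcgr2b* (6.63), *Piezo2* (7.94), *Exo1* (9.41), *Col6a2* (10.40) and *Clca3a1* (10.87). Values for genes at 0 in a group depend on the prior count, and those of *Nat8f7* and *AK157302* rest on control library 4. With the number that opens the labels as a fixed block, 9 of the 57 were not called, *AK157302*, *Clca3a1*, *Col6a2*, *Exo1*, *Fcgr2b*, *Mki67*, *Nr1h3*, *Piezo2* and *Prdm8*. By limma-voom 10 were not called, with or without that number, *AK157302*, *C4b*, *Fcgr2b*, *Gfap*, *Nat8f7*, *Nr1h3*, *Prdm8*, *Serpina3n*, *Slc1a3* and *Zbtb16*.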

How the results depend on the processing

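Chronic against control, 3436 genes were called, 3197 with a replicate block and 3463 by DESeq2, and between 2941 and 3504 with 1 library left out. A test against the fold limit called 1586 (413 higher, 1173 lower). Against the acute stages, 1076 were called, 891 with the replicate block and 1103 by DESeq2, and 683 (433 higher, 250 lower) in a fit of the 22 spinal cord libraries alone. A sheet number term left 411 higher in that comparison, 50.2% of its calls in place of 61.2%. With 1 library left out it called 778 to 1095, of which 422 to 676 were higher, the lowest without chronic library 2 (422). Between cord and hindbrain 1587 were called, 1493 with the replicate block and 1796 by DESeq2, and 1304 to 1671 with 1 library left out, of which 232 to 374 were higher, the lowest without hindbrain control library 1 (232). Control and chronic spinal cord libraries with the same replicate number in their titles did not deviate together (correlations between -0.1455 and 0.0256). These numbers were taken to mark different animals in control and EAE mice, so the correlations cannot decide on pairing. The main fit therefore held no pairs. The number that opens the labels, tried after the data had been seen, is shared by 7 cord and hindbrain pairs, whose deviations correlated at -0.049 to 0.136. With it as a fixed block 1421 genes were called (339 higher), in limma-voom 1715 (400 higher) with it as a random block (consensus correlation 0.028) and 1668 (383 higher) without. Leaving out 1 library moved further called log2 changes by more than 1.5-fold, to 7.68 (without control library 5) and 5.77 (chronic 1) for *Gbp2*, 7.28 for *Cd274* (control 4), 4.98 for *Fos* (control 3), 6.13 for *Irf7* (control 3), 5.95 for *Top2a* (control 1), -5.67 for *Boc* (chronic 2), -5.14 for *Hes1* (chronic 6), -5.49 for *Nkx6-1* (chronic 3), -5.31 for *Slc7a11* (chronic 4) and -4.49 for *Slc16a4* (chronic 1). Of 125 results for single genes, 101 kept direction and call in all settings, 21 lost the call in at least 1 and 2 gained it. *Gfap*, which was not called, ranged from -0.391 (without chronic library 1) to 0.039 with 1 library left out and changed sign from -0.10 to 0.036 without control library 3, 0.036 without chronic library 3 and 0.039 without chronic library 5. The cause of these changes was not tested. Library totals of 1857684 to 4209741 counts limit genes near 1 CPM.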

Other observations

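Gene families, some of which share members with the lists above, were counted after their values had been seen. Of 85 ribosomal protein genes (Rpl and Rps), 58 were higher in chronic than in control libraries and 1, *Rpl3l*, lower, with a median log2 fold change of 1.48, against 5.16% higher and 9.57% lower among all genes. Of 13 mitochondrially encoded protein genes 6 were lower and none higher, with a median of -1.07. Among interferon-inducible GTPases of the Gbp and Irg families 13 of 17 were higher (median 4.91, or 3.77 with undetected genes at their bounds), and among oligoadenylate synthetases 4 of 8 were.

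Of 7 kallikrein genes 4 were higher, *Klk6* to *Klk9*, and none lower. Collagens divided, with 9 of 41 higher, among them *Col6a1* and *Col6a2*, and 6 lower, among them *Col1a1* and *Col1a2*. Of 48 histone genes 9 were higher and 3 lower, and of 32 Hox genes *Hoxb4*, *Hoxc6* and *Hoxd4* were lower and none higher. Among all genes tested 5.16% were higher and 9.57% lower, and the share of Hox genes that fell was close to the latter.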
